A study of Mus musculus with 12 samples.

Results

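Extl1, Aqp9 and Cox6a2 are 3 of the 21671 genes listed in an RNA-seq table of FL5.12 cells, a murine prolymphocytic BALB/c line that grows in interleukin 3. They were chosen by their fitted RNA levels, as the genes with the largest rises with IACS-010759 (hereafter IACS), a small-molecule inhibitor of complex I of the mitochondrial electron transport chain, whether or not the cells had first been primed with 4-hydroxytamoxifen (OHT). All of the cells, controls included, carried MycER, a Myc protein fused to a hormone receptor domain that OHT activates. The chimera was expressed constitutively from a retroviral vector in drug-selected cultures, and no library came from cells without it. The untreated group had no drug, the OHT group had 100 nM OHT for 72 h, the IACS group had 135 nM IACS for 24 h, and the OHT_IACS group had 100 nM OHT for 72 h with 135 nM IACS over the last 24 h. Each of the 4 conditions was measured in 3 libraries, described as biological replicates.

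The 3 genes encode proteins of unrelated function. EXTL1 is an exostosin-like glycosyltransferase, a relative of the enzymes that lengthen heparan sulfate, the sulfated sugar chain that many cells carry on surface and matrix proteins. AQP9 is an aquaglyceroporin, a membrane channel for water, glycerol and other small uncharged solutes, best known from liver and white blood cells. COX6A2 is the heart and skeletal muscle form of subunit VIa of cytochrome c oxidase, complex IV of the same chain that IACS blocks at complex I; most other tissues use the COX6A1 form. Cells whose respiratory chain fails can switch on the integrated stress response, in which the transcription factor ATF4 raises genes for amino acid synthesis and transport.

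Values are RPKM, read counts corrected for gene length and library depth. The size of the steps between RPKM values gave the number of reads behind each one, with totals of 10376530 to 14550158 reads per library, of which 4199265 to 5762338 lay on genes. Fits were made with limma on log2(scaled RPKM + 0.1) over the 9745 genes with at least 1 RPKM in at least 3 libraries, and p-values were adjusted by the Benjamini-Hochberg method over all of them. Aqp9 passed this filter in every library, whereas Extl1 and Cox6a2 were below 1 RPKM in all 6 libraries without IACS and passed through the libraries with it. Log2 fold changes understate the change of low genes on this scale. Myeloid markers were present, with a summed level of 123 to 129 RPKM over 18 genes in untreated cells, 112 to 137 RPKM with IACS, 56 to 60.8 RPKM with OHT and 53.1 to 57.4 RPKM with both drugs. Of the B-lineage markers, Pax5 and Rag1 had no read in any library, while untreated cells had 17.2 RPKM of Ptprc (CD45), 7.62 of Il3ra, 2.95 of Cd79b and 0.994 of Cd79a. With OHT alone, where 18.2% of all tested genes were called lower, Cd79b fell to 1.36 RPKM (log2 -1.10, limma adjusted p = 0.000262) and Il3ra to 5.93 RPKM (log2 -0.38, adjusted p = 0.00272). In OHT_IACS against IACS cells Cd79b (log2 -1.09, limma adjusted p = 0.000435) and Ptprc (-0.21, adjusted p = 0.00488) were lower. Il3ra was higher there (0.30, adjusted p = 0.0154), where 12.3% of all tested genes were called higher and 14.2% lower. With IACS 0 of the 4 tested were called by limma or voom in nonprimed cells, or at an unadjusted p under 0.05. In primed cells 1 of the 4 was called higher with IACS, where 11.9% of all tested genes were. It was Il3ra, from 5.93 to 9.44 RPKM (log2 0.67, limma adjusted p = 0.000103). The 17 hepatocyte markers summed to at most 1.25 RPKM.

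In the GENCODE annotation of GRCm38, which is not the mm9 build of the deposited table, Extl1 (ENSMUSG00000028838.11) lies on the minus strand at chr4:134356372-134383850, Aqp9 (ENSMUSG00000032204.13) on the minus strand at chr9:71110659-71168682 and Cox6a2 (ENSMUSG00000030785.8) on the minus strand at chr7:128205435-128206387. RefSeq promoter windows of 300 bases (250 before and 50 after a transcription start, GRCm38.p6) were found for 2 of the 3 genes, with 1 start for Extl1 and 2 for Aqp9. They were searched on both strands for TGATGNAA, the C/EBP-ATF composite site to which ATF4 binds, and for CACGTG, the E-box to which MYC binds; neither motif contains the other. One of the Aqp9 windows held TGATGNAA, in a form spelled TGATGAAA on the transcribed-sense strand, from 64 to 57 bases before the start. TGATGNAA occurred in 3.97% and CACGTG in 7.15% of all 32851 promoter windows, and no other match to either was present in the windows of these genes. These windows lie inside the GENCODE spans given above, so sequence upstream of those spans was not searched. The 250 bases upstream of the Extl1 start and of the Aqp9 start with the match are shown, with the match in capitals (Extl1 at chr4:134372548-134372797, Aqp9 at chr9:71162634-71162883, both minus strand). This Aqp9 window was picked for its match. The other Aqp9 start (upstream bases at chr9:71163290-71163539) held neither motif and is not shown. A match is a string of letters and not a measured binding site, and gene-level values do not say which start was used.
Extl1: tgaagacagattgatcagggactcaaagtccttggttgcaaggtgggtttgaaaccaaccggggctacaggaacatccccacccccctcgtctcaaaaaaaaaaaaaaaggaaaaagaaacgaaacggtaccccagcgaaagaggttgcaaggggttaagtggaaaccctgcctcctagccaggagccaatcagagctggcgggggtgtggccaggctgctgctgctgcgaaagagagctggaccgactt
Aqp9: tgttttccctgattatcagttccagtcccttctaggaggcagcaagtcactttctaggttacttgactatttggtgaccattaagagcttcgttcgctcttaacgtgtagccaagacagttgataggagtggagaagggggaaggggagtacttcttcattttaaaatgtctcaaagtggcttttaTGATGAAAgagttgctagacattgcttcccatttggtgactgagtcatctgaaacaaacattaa

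Cox6a2 went from a handful of reads to a clear signal. Its untreated libraries held 1, 2 and 1 reads, or 0.113, 0.209 and 0.106 RPKM, and the OHT libraries held 1, 6 and 2 reads, or 0.146, 0.652 and 0.282 RPKM. With IACS the libraries held 63, 44 and 40 reads, or 7.31, 4.86 and 5.45 RPKM, and those with OHT_IACS 27, 35 and 30 reads, or 3.44, 4.50 and 3.86 RPKM. Every library with IACS thus lay above every library without it, and OHT replicate 2 was the highest of the 6 without IACS. Group means were 0.143 ± 0.0571, 0.36 ± 0.262, 5.88 ± 1.28 and 3.93 ± 0.534 RPKM (SD, n = 3 each) in untreated, OHT, IACS and OHT_IACS cells. Since a background of so few reads gives no firm fold, the rise is given as the ratio of pooled reads corrected for library depth, which was 40.9 (95% exact interval 15.6 to 152, counting error only) in nonprimed cells and 10.1 (5.1 to 22.8) in primed cells. Relative to a background in which each library below 3 reads is set to 3 reads, the IACS mean was 17.8 times and the OHT_IACS mean 7.8 times as high, the latter becoming 9.07 times without OHT replicate 2.

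Extl1 was low but measurable before IACS, with reads enough for a fold. The untreated libraries gave 0.600, 0.501 and 0.562 RPKM (33, 30 and 33 reads), and the OHT libraries 0.398, 0.732 and 0.429 RPKM (17, 42 and 19 reads). The IACS libraries gave 5.0, 4.60 and 5.39 RPKM (269, 260 and 247 reads), and the OHT_IACS libraries 3.57, 4.26 and 3.44 RPKM (175, 207 and 167 reads). OHT replicate 2 was again the highest of its group, and no library without IACS came near those with it. The means were 0.554 ± 0.0497, 0.52 ± 0.184, 5.0 ± 0.395 and 3.76 ± 0.441 RPKM in the same order of groups. In the fit, Extl1 was 7.66-fold higher with IACS in nonprimed cells (log2 2.94, SE 0.172) and 6.37-fold higher in primed cells (log2 2.67, SE 0.172).

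Aqp9 was the most abundant of the 3 in every condition on the RPKM scale, which is per length. It was at 3.41, 3.2 and 2.99 RPKM in untreated libraries (142, 145 and 133 reads) and at 4.46, 5.92 and 5.34 RPKM in OHT libraries (144, 257 and 179 reads). With IACS it reached 18.5, 18.3 and 15.3 RPKM (753, 781 and 530 reads), and with OHT_IACS 22.7, 23.7 and 21.7 RPKM (842, 870 and 797 reads). The 4 groups did not overlap, in the order untreated, OHT, IACS and OHT_IACS. Means were 3.2 ± 0.21, 5.24 ± 0.735, 17.4 ± 1.79 and 22.7 ± 0.983 RPKM. The fitted rise with IACS was 5.18-fold in nonprimed cells (log2 2.37, SE 0.083) and 4.30-fold in primed cells (log2 2.10, SE 0.083).

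**Figure D1:**
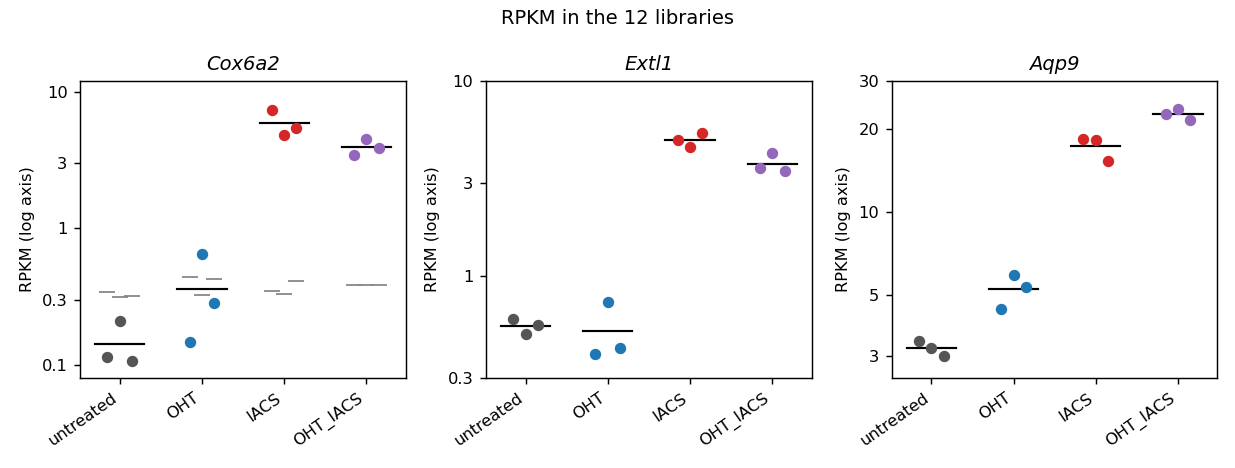
RPKM of Cox6a2, Extl1 and Aqp9 in each of the 12 libraries, on log axes, with replicates 1 to 3 from left to right in each group and a black line at the group mean. Grey dashes in the Cox6a2 panel mark the RPKM that 3 reads would give in that library; the untreated libraries lie below them, and the libraries with IACS (3.44 to 7.31 RPKM) lie above.

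These rises chose the 3 genes, so they carry no test, and the background in the same comparisons is given only for scale: of the 9745 genes, 8.15% were called higher with IACS in nonprimed cells and 11.9% in primed cells (adjusted p under 0.05), and 24% and 16.6% had libraries that did not overlap in that direction. On the RPKM as deposited, the calls with IACS in nonprimed cells numbered 867 higher and 469 lower, against 794 and 754 (8.15% and 7.74%) after scaling. The median over all tested genes was 0.004 on the log2 scale in nonprimed cells and -0.014 in primed cells. Among 9626 tested genes with more than 3 reads in each library with IACS, Cox6a2, Extl1 and Aqp9 ranked 1, 2 and 3 in both responses. They were also the 3 genes for which both log2 rises reached 2 at the pseudocount of 0.1, while 25 genes reached 1. Just inside that limit was Aqp9, with a smaller rise of 2.10, and just outside was Atf5, with log2 rises of 1.75 in nonprimed and 1.98 in primed cells. At a pseudocount of 1, neither Extl1 (1.931 and 1.647) nor Aqp9 (2.1 and 1.932) reached 2 in both. Cox6a2 is counted and ranked here by its fitted rise over a background of few reads. Both Extl1 and Aqp9 rose by less in primed cells, by 0.26 on the log2 scale for Extl1 (95% interval of the difference, primed less nonprimed, -0.79 to 0.261) and by 0.27 for Aqp9 (-0.522 to -0.015); these differences come from the values that chose the genes and were not tested.

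**Figure D2:**
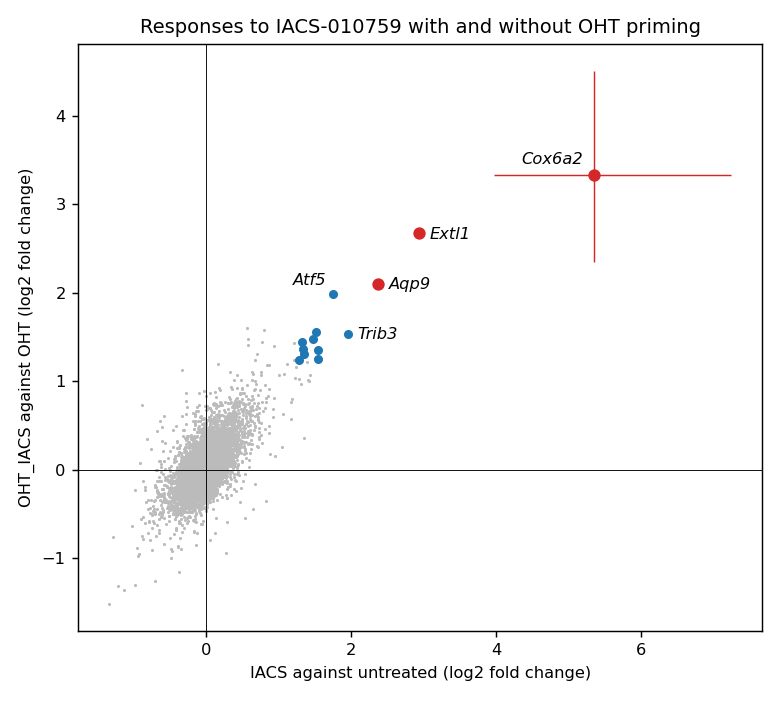
Log2 fold change with IACS in nonprimed cells (x axis) and in OHT-primed cells (y axis) for the 9626 genes ranked, each a grey point, with Extl1, Aqp9 and Cox6a2 in red and the next 10 genes of the ranking in blue. Cox6a2 is drawn at its ratio of pooled reads with the 95% counting interval as bars, and the 3 red points lie beyond Atf5 and Trib3 in the upper right.

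The effect of OHT was not used to pick the genes, although its comparisons share libraries with those that did. Aqp9 was higher with OHT both without and with IACS. In OHT against untreated cells it rose 1.58-fold (log2 0.66, SE 0.083, 95% interval 0.485 to 0.843, limma adjusted p = 4.64e-05), and in OHT_IACS against IACS cells 1.32-fold (log2 0.40, SE 0.083, 0.217 to 0.575, adjusted p = 0.0033). All 3 libraries with OHT exceeded all 3 without it in each comparison. Calls in the same direction were made for 18.2% of tested genes in the first comparison and 12.3% in the second, and non-overlapping libraries were seen for 25.4% and 19.3%, so a rise of this kind with OHT was common in these libraries. Myeloid markers went the other way, since their summed level with OHT was lower in every library, and in OHT against untreated cells 8 of the 9 tested fell, against 18.2% of all tested genes called lower, S100a9 from 26.9 to 4.14 RPKM among them. In bulk RNA, a change in the share of cells of a kind and a change of RNA per cell cannot be told apart.

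Extl1 did not pass the test in either comparison. Its log2 difference was -0.13 between OHT and untreated cells (SE 0.172, 95% interval -0.506 to 0.237, limma adjusted p = 0.568), with overlapping libraries. Without OHT replicate 2 that difference was -0.36 with an adjusted p of 0.0486, against adjusted p-values of 0.0486 to 0.956 over all 23 alternatives run, and it took the opposite sign under quantile normalization (0.017) and with library total as a covariate (0.066). In OHT_IACS against IACS cells the log2 difference was -0.40 (95% interval -0.771 to -0.028, adjusted p = 0.106), and the OHT_IACS libraries, at 3.44 to 4.26 RPKM, lay below the IACS libraries at 4.60 to 5.39 RPKM; 21.1% of all tested genes did not overlap in this direction and 14.2% were called lower. This difference was negative in 23 of 23 alternatives and passed the threshold in 5 of them, one being the fit without OHT replicate 2 (adjusted p = 0.0265; range over all 23 0.00432 to 0.256).

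Cox6a2 in OHT against untreated cells had 9 reads against 4, a depth-corrected ratio of 2.71 with a counting interval of 0.755 to 12, which includes no change. The fit gave a log2 difference of 0.78 (SE 0.313, 95% interval 0.101 to 1.451, limma adjusted p = 0.0683), with overlapping libraries. That interval lies above 0, but the difference was not called, and a fold on so few reads is not firm. Of those 9 reads, 6 came from OHT replicate 2. In OHT_IACS against IACS cells its log2 difference was -0.55 (SE 0.313, 95% interval -1.223 to 0.127, limma adjusted p = 0.223), with OHT_IACS libraries at 3.44 to 4.50 RPKM below IACS libraries at 4.86 to 7.31 RPKM. The shares of all genes for this direction are those given for Extl1. It was called in 3 of 23 alternatives, with adjusted p-values of 0.0243 to 0.498 over all of them.

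**Figure D3:**
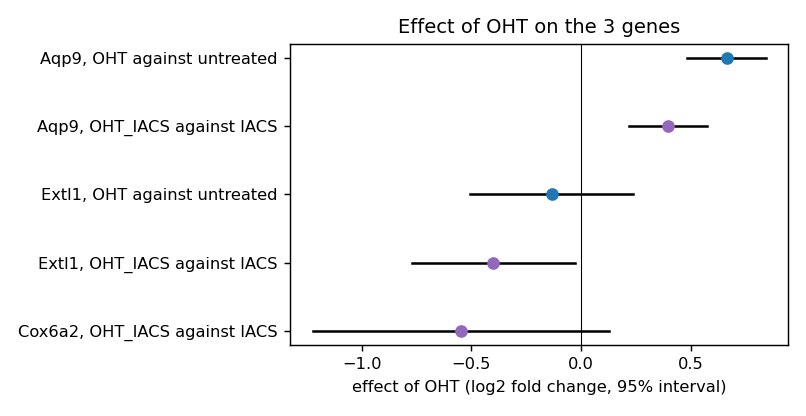
Effect of OHT on the 3 genes as log2 fold change (x axis) with its 95% interval from the fit of all 12 libraries, in blue for OHT against untreated and in purple for OHT_IACS against IACS. Both intervals of Aqp9 lie above 0 (0.485 to 0.843 and 0.217 to 0.575), while those of Extl1 and Cox6a2 lie around or below 0; Cox6a2 without IACS is left out because it had 4 and 9 reads.

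Library depth moved with some of these values. OHT replicate 2 was the deepest OHT library, with 13956222 reads against 10376530 and 10770476 in the others, and it was the highest OHT library for each of the 3 genes in RPKM, a unit already divided by depth. Within conditions, the slope of log2 reads on log2 library total was 2 for Extl1, 1.71 for Aqp9 and 3.43 for Cox6a2, where strict proportion would give a slope of unity. The median slope was 1.38 over the 4422 tested genes under 0.1 reads per base, 1.2 over the 3491 genes at 0.1 to 0.3 reads per base and 0.18 over the 84 genes above 1 read per base. The median was 0.8 over the 1748 genes at 0.3 to 1 reads per base. Whether duplicate reads were removed before counting is not given in the sources used here, so RPKM of deeply covered genes may not keep proportion to RNA, and levels or shares that set them beside low genes carry that limit. With log2 library total in the fit, Aqp9 remained higher with OHT by 0.82 without IACS and by 0.45 with IACS on the log2 scale (limma adjusted p = 7.22e-05 and 0.000685).

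Among the EXT family, Extl1 had the lowest level of the 4 detected members without IACS. Ext1, which together with Ext2 forms the heparan sulfate polymerase, had no read in any library. Ext2 stood at 7.50 ± 0.364 RPKM in untreated and 8.32 ± 0.59 RPKM in IACS cells, a log2 difference of 0.12 that did not pass the test, and rose by 0.25 in primed cells (limma adjusted p = 0.0229). Extl3, the transferase that starts the heparan sulfate chain, fell from 6.84 ± 0.313 to 4.79 ± 0.127 RPKM with IACS (log2 -0.53, adjusted p = 4.48e-05) and by 0.27 in primed cells (adjusted p = 0.0041). Extl2 fell by 0.23 in primed cells (adjusted p = 0.0185), and its log2 difference of -0.17 in nonprimed cells was not called. Extl1 therefore made up 2.51 ± 0.267% of the summed RPKM of the 5 EXT genes in untreated cells, 2.26 ± 0.604% with OHT, 20.3 ± 2.08% with IACS and 15 ± 1.07% with both.

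The other genes of heparan sulfate synthesis were mostly uncalled or lower with IACS. Of 18 tested, 0 rose and 5 fell in nonprimed cells by limma (0 and 9 at an unadjusted p under 0.05, 0 and 5 by voom), and 1 rose and 3 fell in primed cells, with medians of -0.14 and -0.07 on the log2 scale. Calls in the lower direction were made for 7.74% and 11.8% of all tested genes. The fallen in nonprimed cells were Extl3, the linkage enzymes Xylt2 and B4galt7, the phosphatase Pxylp1 and the sulfotransferase Ndst1. With OHT alone, where 18.2% of all genes were called in each direction, 2 rose, among them the 6-O-sulfotransferase Hs6st1 (10.5 to 13.2 RPKM, log2 0.30), and 5 fell, among them Xylt1 (1.54 to 0.979 RPKM, log2 -0.64). With both drugs against IACS, where 12.3% of all genes were called higher and 14.2% lower, 5 rose and 3 fell. With 1 library left out, the 5 that fell with IACS became 2 to 5 (2 without untreated replicate 2, untreated replicate 3 or IACS replicate 3, and 3 without untreated replicate 1 or IACS replicate 2), and the 3 that fell in primed cells became 1 without OHT replicate 3 or OHT_IACS replicate 3. The 5 that fell with OHT became 3 without untreated replicate 3, and in OHT_IACS against IACS cells the 5 that rose became 3 without OHT_IACS replicate 2 and the 3 that fell became 1 without IACS replicate 2, OHT_IACS replicate 1 or OHT_IACS replicate 3. Of 15 heparan sulfate core proteins, 10 had at most 3 reads in every library, including syndecan Sdc1 and glypican Gpc1, and the proteoglycan Srgn was the 1 tested, at 45.0 RPKM untreated and 54.8 RPKM with IACS (log2 0.25, adjusted p = 0.0198).

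Aqp9 was nearly alone among the aquaporins. Of the 11 others, 5 had no read and 8 had at most 3 reads in any library, and Aqp11, an intracellular channel, was the 1 tested. Aqp11 was at 1.67 ± 0.246 RPKM untreated, 1.72 ± 0.197 with OHT, 1.32 ± 0.204 with IACS and 1.28 ± 0.0638 with both, and was called in 0 of the 4 comparisons by limma or voom, though it was lower at an unadjusted p under 0.05 in both responses to IACS. Of the other glycerol channels, Aqp3 had at most 1 read and Aqp7 at most 8 reads in a library. The share of Aqp9 in the summed RPKM of the 12 aquaporins went from 60.7 ± 1.61% untreated to 71.2 ± 3.02% with OHT, 92.0 ± 0.106% with IACS and 93.9 ± 0.296% with both. Of 12 tested genes that handle glycerol inside the cell, 2 rose and 3 fell in nonprimed cells and 0 rose and 3 fell in primed cells by limma, where 1 was higher at an unadjusted p under 0.05 and 0 by voom; over all tested genes 8.15% were called higher and 7.74% lower in nonprimed cells, and 11.9% and 11.8% in primed cells. The 2 that rose were Pnpla2 (log2 0.30, limma adjusted p = 0.0193) and Dak (log2 0.33, adjusted p = 0.0461). This count of 2 became 0 without untreated replicate 1, untreated replicate 2, IACS replicate 1 or IACS replicate 2 and 1 without untreated replicate 3, OHT replicate 3 or OHT_IACS replicate 1, and the 3 that fell in primed cells became 1 without OHT_IACS replicate 3. Pgp, the phosphatase that makes glycerol from glycerol 3-phosphate, fell from 24.6 to 18.4 RPKM with IACS (log2 -0.44, limma adjusted p = 0.000297), and the glycerol 3-phosphate dehydrogenases Gpd2 (log2 -0.29) and Gpd1l (log2 -0.20) fell as well. Glycerol kinase (Gyk) was at 11.4 RPKM untreated and 12 RPKM with IACS and was not called, whereas it fell with OHT (log2 -0.33, adjusted p = 0.00073). With OHT alone 4 of the 12 rose and 1 fell, and in OHT_IACS against IACS cells 4 rose and 2 fell, beside 18.2% of all genes in each direction with OHT alone and 12.3% higher and 14.2% lower with IACS present. The first 4 became 2 without untreated replicate 2, and the second 4 became 1 without OHT_IACS replicate 1 and 2 without OHT_IACS replicate 3 or any 1 of the IACS libraries. The acyltransferase Gpam rose with OHT from 10.7 to 15 RPKM.

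Reads of the other subunit genes of cytochrome c oxidase followed library depth too weakly for a firm reading. Of the 13 tested, 12 lay above 0.3 reads per base. The median slope of log2 reads on log2 library total within conditions was 0.24 over the 13. It was 0.8 over the 1748 tested genes at 0.3 to 1 reads per base. Reads of the 13 thus changed little with depth, and a difference in RNA could be understated. The cause of this low slope was not tested. Of the 13 tested, 0 were called by limma or by voom in either response to IACS, in either direction, with 1 higher at an unadjusted p under 0.05 in nonprimed cells and 0 in primed cells, and their medians were 0.10 and 0.02 on the log2 scale. Over all tested genes, 8.15% were called higher and 7.74% lower in nonprimed cells, and 11.9% and 11.8% in primed cells. With shares this low, few calls among 13 genes would stand out either way. Cox6a1, the form used in most tissues, was at 70.2 ± 3.48 RPKM untreated, 76.9 ± 10.1 with OHT, 76.8 ± 4.8 with IACS and 80.9 ± 1.9 with both. Cox6a2 accordingly accounted for 0.206 ± 0.0931% of the summed RPKM of the pair in untreated cells, 0.501 ± 0.422% with OHT, 7.08 ± 1.31% with IACS and 4.63 ± 0.494% with both. Cox6a1 held 451 to 542 reads over 533 bases and is among the 13 tested, whose slopes were at most 0.56. It shares this limit, and its part in the percentages was not tested. With OHT alone, where 18.2% of all tested genes were called higher, 2 of the 13 were. They were Cox5a (36 to 43.7 RPKM, log2 0.25) and Cox6b1 (48.8 to 61.3 RPKM, log2 0.30). That count of 2 became 12 without OHT replicate 2, the deepest OHT library, and 0 without untreated replicate 2, untreated replicate 3, OHT replicate 1 or OHT replicate 3 and with library total as a covariate, and 1 in the fit of the 2 groups alone. In OHT_IACS against IACS cells 0 of the 13 were called by limma or voom, or at an unadjusted p under 0.05. Of all tested genes, 12.3% were called higher and 14.2% lower there. Of the other muscle forms of the complex, Cox7a1 had 2 to 8 reads in each library and was not called, and Cox8b had at most 3 reads.

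**Figure D4:**
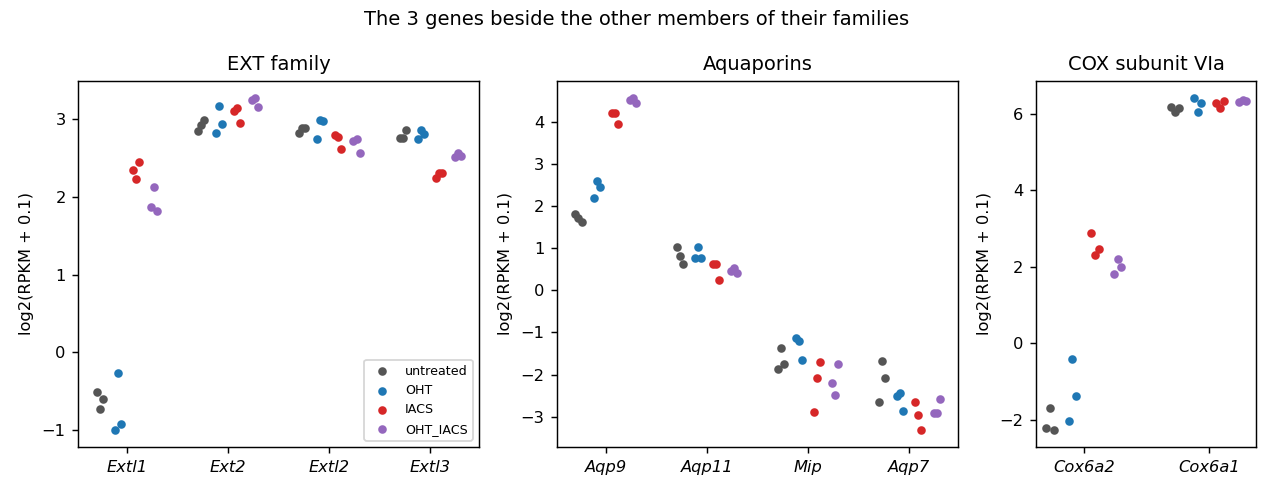
Level as log2(RPKM + 0.1) of Extl1, Aqp9 and Cox6a2 and of detected relatives, with a point for each library coloured by group. Extl1, Aqp9 and Cox6a2 are higher in the red and purple libraries with IACS, while Ext2, Aqp11 and Cox6a1 shift by less than 1 on this scale; Mip and Aqp7 rest on at most 10 reads in a library.

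Few striated muscle genes were detected beside Cox6a2. Of 35 listed, 12 had no read in any library, among them Myod1, Myog and Mb, and 20 had at most 3 reads. Of the 5 tested, 0 were called by limma in nonprimed cells (1 higher and 1 lower at an unadjusted p under 0.05, 1 higher by voom), and muscle creatine kinase (Ckm), at 22.8 RPKM untreated and 27.1 RPKM with IACS, rose in primed cells (log2 0.25, limma adjusted p = 0.0248). With OHT, 0 of the 5 were called by limma, while 1 was higher at an unadjusted p under 0.05 and by voom without IACS and 0 with IACS. Of 19 assembly factors of cytochrome c oxidase, 0 rose and 4 fell in nonprimed cells (2 and 6 at an unadjusted p under 0.05, 0 and 3 by voom) and 1 rose and 2 fell in primed cells, Cox19 falling in both (log2 -0.34 and -0.34). Of all genes, 8.15% were called higher and 7.74% lower in nonprimed cells and 11.9% and 11.8% in primed cells. The 1 that rose, Cox18 (adjusted p = 0.0498), was lost in 15 of 24 alternatives, 9 of them with 1 library left out (untreated replicate 1 or 3, IACS replicate 1, or any OHT or OHT_IACS library), and the 2 that fell in primed cells became 1 without untreated replicate 2, IACS replicate 1 or any 1 of the OHT_IACS libraries. OHT alone raised 5 of them, among them Fastkd3 (11.6 to 16.8 RPKM, log2 0.51), and lowered 2, and in OHT_IACS against IACS cells 5 rose and 1 fell, beside 18.2% of all genes in each direction and 12.3% higher and 14.2% lower. The 2 lowered became 1 without untreated replicate 1, OHT replicate 2 or OHT replicate 3 and 4 without OHT replicate 1, and the last 5 became 3 without untreated replicate 1, untreated replicate 3, IACS replicate 1 or any 1 of the OHT_IACS libraries.

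Of the genes next to Extl1, Aqp9 and Cox6a2 on their chromosomes, the 6 tested were not called with IACS, and the others did not pass the filter. Over all tested genes, 8.15% were called higher and 7.74% lower in nonprimed cells, and 11.9% and 11.8% in primed cells. Few calls among 6 genes would stand out at such shares. Beside Extl1, Pafah2 was at 21.2 RPKM untreated and 19.8 RPKM with IACS and Stmn1 at 65.9 and 70.2 RPKM, while Slc30a2 and Trim63 had at most 1 read. Beside Aqp9, Adam10 was at 9.99 and 9.81 RPKM and Polr2m at 41.8 and 43.1 RPKM, while Lipc and Aldh1a2 had at most 2 reads. Beside Cox6a2, Armc5 was at 5.48 and 5.64 RPKM and 9130023H24Rik at 2.34 and 2.43 RPKM. The lowest adjusted p over these 6 tested neighbours and both responses was 0.0589, for 9130023H24Rik in primed cells. The plus-strand gene Itgad overlaps 70 of the 680 exon bases of Cox6a2, and it had at most 2 reads in any library, with 1 read over the untreated, 1 over the OHT, 5 over the IACS and 5 over the OHT_IACS libraries. The part of this overlap in the reads of Cox6a2 was not tested. The libraries were strand-specific, and whether strand was used in counting is not given in the sources used here.

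The 10 genes that followed in the ranking by the smaller rise were Atf5, Trib3, Il16, Igfbp6, Nupr1, Slc6a9, Fam129a, Slc7a11, I830077J02Rik and Pi16. Atf5, Trib3 and Nupr1 are stress-response regulators, Slc7a11 is the cystine and glutamate antiporter and Slc6a9 a glycine transporter. Trib3 went from 5.73 ± 0.464 to 23.0 ± 0.838 RPKM with IACS and from 9.48 ± 2.07 to 27.3 ± 0.905 RPKM in primed cells. Il16, a cytokine gene, went from 1.55 ± 0.142 to 4.71 ± 0.375 RPKM and from 0.809 ± 0.0637 to 2.57 ± 0.0983 RPKM. With OHT alone, 5 of the first 13 genes rose, namely Aqp9, Trib3 (log2 0.68), Igfbp6 (0.67), Slc6a9 (0.53) and Slc7a11 (0.36), 2 fell, namely Il16 (-0.88) and Atf5 (-0.41), and 6 were not called by limma. With IACS present, OHT raised 4 of the 13 (Aqp9, Igfbp6, Slc6a9 and Slc7a11), lowered Il16, and left 8 uncalled. Over all tested genes, OHT alone gave calls for 18.2% in each direction, and with IACS present for 12.3% higher and 14.2% lower. Igfbp6 rested on few reads, with 17 over the untreated and 27 over the OHT libraries. Genes with like rises with IACS thus differed in the direction of their OHT effect.

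Genes of the integrated stress response were called higher with IACS in large part. Of 46 genes listed as ATF4 targets, a list written with results of these libraries known, 9 had at most 3 reads in every library. Among them Atf3, Stc2 and Bcat1 had none. Of the 35 tested, 28 rose and 1 (Psph, a serine synthesis enzyme, log2 -0.75) fell in nonprimed cells, where 8.15% of all tested genes were called higher. In primed cells 25 rose and 1 fell, where 11.9% of all tested genes were called higher. The median of the 35 was 0.39 and 0.32 on the log2 scale, and 24 of them rose in both, against 5.17% of all tested genes called higher in both responses. By the smaller of both rises, the largest called in both were Atf5, Trib3, Nupr1 and Slc6a9, each below Extl1, Aqp9 and Cox6a2 in fitted rise. Atf4 itself was at 67.3 RPKM untreated and 81.2 RPKM with IACS, and at 79.9 RPKM with OHT and 87.2 RPKM with both drugs. It was not called in either response to IACS (log2 0.24 and 0.13, limma adjusted p = 0.0743 and 0.289). With OHT alone 14 of the 35 rose and 3 fell (median 0.14, against 0.013 over all tested genes), and in OHT_IACS against IACS cells 6 rose and 3 fell (median 0.10), the 6 becoming 10 without OHT replicate 2. The shares of all genes called were 18.2% in each direction in the first comparison and 12.3% higher and 14.2% lower in the second. Ddit4 (log2 0.67) and the arginine transporter Slc7a1 (0.55) were among those that rose with OHT, and Tes fell (-1.13).

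Over the 12 libraries, the genes most like each of the 3 were named by Pearson correlation of log2(scaled RPKM + 0.1), a description over points that fall into libraries with and without IACS and share their depth. Aqp9 was followed most closely by Slc7a11 (r = 0.996), Trib3 (0.988), the kinase gene Nek6 (0.987), Cebpg (0.985) and the mitochondrial alanine transaminase Gpt2 (0.985). For Cox6a2 they were Ddit3, which encodes the stress factor CHOP (0.996), Atf6 (0.977), Extl1 itself (0.977), Gpr141 (0.976) and Nfe2l1 (0.974). For Extl1 they were the protease gene Rhbdd1 (0.992), Fam129a (0.988), Gpr141 (0.988), Glrp1 (0.985) and Ogt (0.985). Genes with a small span of levels could follow as closely as those with a large span: Ogt differed with IACS by 0.36 in nonprimed cells on the log2 scale, against 2.94 for Extl1. Between the 3 genes, r was 0.941 for Extl1 and Aqp9, 0.977 for Extl1 and Cox6a2 and 0.964 for Aqp9 and Cox6a2. After the condition means were taken out, r was 0.475, 0.694 and 0.67 over the same 12 libraries. Depth was not taken out, and within conditions the reads of all 3 genes changed more than in proportion to it (slopes 2, 1.71 and 3.43). Cox6a2 also rested on few reads in the libraries without IACS. The part of depth in these correlations was not tested, and no such values over other genes are given here.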

How the data were processed

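RNA-seq libraries were prepared from total RNA of FL5.12 MycER cells by a stranded, ribosomal RNA-depleted protocol, with 3 libraries in each of 4 conditions taken from the sample labels. The authors deposited RPKM per gene and sample in 1 table, made from mm9 alignments (per the submitters' processing notes, TopHat2 2.0.8 and featureCounts 1.4.5-p1); 0 columns of other samples were present. The authors' own comparisons of each treatment with untreated cells (log2 differences and p-values from DESeq2, in the deposited table) were left aside. Reads per gene were recovered from the RPKM steps for 15451 of the 15451 genes above 0 (tolerance 0.01 reads); the other 6220 genes were at 0. Libraries were scaled by the median ratio (factors 0.974 to 1.03). The filter was 1 RPKM in at least 3 libraries, and limma 3.58.1 (R 4.3.3, mean-variance trend) was fitted to log2(scaled RPKM + 0.1) in all 12 libraries, two-sided, with Benjamini-Hochberg adjusted p under 0.05 as the call. The fit was tested on simulated data: among 9745 genes, 200 were given a log2 difference of 1, and 98% of these were found in OHT against untreated and 97% in OHT_IACS against IACS. This difference is larger than the fitted OHT effects given for the 3 genes, and smaller ones were not simulated. The simulated noise did not depend on library depth, and calls among the unchanged genes are not given here. Ratios of reads have exact 95% intervals for counting error only, and the level of 3 reads per library served as the floor. Separate cultures are not labelled, so p-values measure the spread between these libraries. The genes and gene lists were chosen with earlier results of these data known. Named genes were the 3 genes, the first 13 by the smaller of both rises, the 5 highest correlations with each, their families and chromosomal neighbours, the largest called changes of each list, and markers at the top or at 0. A listed gene is not reported here. Alternatives were pseudocounts of 0.01, 0.5 and 1, no filter, a filter of 5 RPKM, unscaled RPKM, quantile normalization, a replicate block, no trend, the 2 groups alone, library total as a covariate, voom on recovered reads, and each library left out. Promoter windows came from RefSeq (GRCm38.p6) and gene positions from GENCODE vM21.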

Additional observations from a re-analysis of the deposited data

How the results depend on the processing

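Across 24 alternatives, the 2 calls of Aqp9 with OHT kept their direction and their call in each, with log2 differences of 0.547 to 0.823 in OHT against untreated cells (0.583 to 0.752 with 1 library left out) and 0.328 to 0.447 in OHT_IACS against IACS cells (0.328 to 0.432). Extl1 in OHT against untreated cells changed sign under quantile normalization (0.017) and with library total as a covariate (0.066), and ran from -0.357 to -0.015 with 1 library left out, being called without OHT replicate 2. Extl1 in OHT_IACS against IACS cells became a call at pseudocounts of 0.5 (-0.366) and 1 (-0.331), with voom on recovered reads (-0.396) and in the fit of the 2 groups alone (-0.399), and ran from -0.479 to -0.324 with 1 library left out. Cox6a2 in OHT_IACS against IACS cells became a call at a pseudocount of 1 (-0.463), with voom (-0.549) and in the 2 groups alone (-0.548), and ran from -0.682 to -0.395. The cause of these changes was not tested. The fitted rise of Extl1 with IACS depended on the pseudocount, at 3.123 with 0.01, 2.362 with 0.5 and 1.931 with 1 in nonprimed cells (3.119 with voom), and 2.071 with 0.5 and 1.647 with 1 in primed cells; that of Aqp9 was 2.1 and 1.932 with a pseudocount of 1. With 1 library left out, the rises ran from 2.862 to 3.003 and 2.552 to 2.896 for Extl1 and from 2.32 to 2.439 and 2.015 to 2.186 for Aqp9, and the Cox6a2 means relative to 3 reads from 15.8 to 19.4 and 7.17 to 9.07. A filter of 5 RPKM in 3 libraries gave no value for Extl1 or Cox6a2, which it removed, and the differences of the rises could not be had from the 2 groups alone.

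Replicate numbers did not pair the libraries. Of 18 same-numbered pairs, 1 had a correlation of deviations over 0.1 (range -0.172 to 0.104), and 2 of 12 libraries correlated best with their own number. With the replicate block, adjusted p was 7.62e-05 and 0.0033 for Aqp9, 0.583 and 0.125 for Extl1 and 0.198 for Cox6a2, and the count of genes higher with OHT was 1831 against 1769. Over all genes, the count lower with IACS in nonprimed cells was 469 on unscaled RPKM against 754, and 429 to 494 without IACS replicate 3 or any 1 of the untreated libraries. The count higher was 498 without untreated replicate 1 and 517 without IACS replicate 1, against 794. In OHT against untreated cells, 1156 genes were lower with library total as a covariate against 1777. In OHT_IACS against OHT cells, 713 were lower without OHT_IACS replicate 3 against 1146. Of 2112 recomputed counts over the gene lists, 182 moved by more than 1.5 times, 180 of them from a count of at most 5. The low reads of Cox6a2 without IACS, 1 to 6 per library, set the precision of its rise.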
